A study of Sinonovacula constricta with 18 samples.

Results

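Siphon-restricted isoform clusters of the razor clam Sinonovacula constricta are the clusters whose level in every siphon library stood above all 15 libraries of the other tissues. They were chosen by these measured values from 32250 clusters. A cluster was kept when its lowest siphon FPKM was at least 1 and above every other library, and when the siphon mean plus 0.1 was at least 4 times the highest other tissue mean plus 0.1. FPKM divides the fragments of a cluster by its length and by the library's total, which puts clusters on 1 scale. Levels of different clusters are still compared with caution, since 1 cluster that was left out had 67.1 FPKM in siphon 1 on 2 estimated reads. The rule left 39 clusters, and the planned cap of 150 was not reached. The quotient in the rule is called the ratio below.

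RNA-seq had been carried out on siphon, foot, mantle, gill, labial palp and intestine of healthy adult clams, with 3 libraries per tissue. Each library came from RNA of 3 individuals mixed together. The labels give no treatment, age, sex or strain, and do not say whether 1 set of animals gave the libraries of the same number. The foot libraries are labelled foot muscle. The p-values below therefore measure the spread between pools. The estimated reads summed to between 9982441 and 17970120 per library, and to between 14701660 and 17970120 in the siphon.

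In burrowing clams the siphons are muscular tubes formed from the mantle margin. They draw water in for breathing and feeding, carry waste water out, and reach from the burrow to the surface of the sediment, where their tips meet light, touch and predators. The foot is the muscular digging organ, and the mantle secretes the shell. The gills and labial palps collect and sort food particles, and the intestine is part of the gut. The siphon wall holds muscle, lining, nerve and sense cells, and in whole tissue more cells of a type cannot be told apart from more RNA per cell.

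Gene names are not attached to the cluster IDs, and annotation or sequences were not used here. Therefore no cluster is given a function, no sequence is printed, and the tissue labels could not be checked against marker genes. Each cluster is called by a short form of its ID, such as i3_c24250, where the first part is the prefix of the ID and the second its cluster number. A dot and a number at the end, as in i4_c3556.1, mark a segment of an ID stem. The last number of the ID appears to be a length in bases of the whole ID stem. It was 2000 in the median of the 39 clusters, against 2184 for the 16707 clusters with at least 1 FPKM in all siphon libraries, and ran from 1196 in i1_c83531 to 4949 in i4_c3556. The effective length that reads and FPKM give was shorter, by 244 in the median of unsuffixed clusters and by far more in some, such as i2_c51196 with 2041 in its ID and an effective length of 492. By effective length i3_c24250 was the longest with 3084 bases and i2_c4576.1 the shortest with 266, while the 3 segments of i4_c3556 had 1799, 1218 and 417.

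The choice narrowed in steps. Of 32250 clusters, 28979 were above 0 in at least 1 siphon library, 16707 reached 1 FPKM in all 3, and 1247 of those had their highest tissue mean in the siphon. In 174 clusters every siphon library stood above all 15 others, and 39 of them also reached a ratio of 4. A further 8 clusters had the ratio and the level, but a library of another tissue overlapped the siphon libraries. Another 69 had the ratio but fell under 1 FPKM in a siphon library. Among these was i2_c101664, named after its values were seen, which had 73.1 FPKM in siphon 3 and 0 in the other 17 libraries.

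The siphon means of the 39 clusters ran from 1.48 to 576 FPKM with a median of 35.7. The mean was at least 10 FPKM in 36 clusters and at least 100 FPKM in 13. Estimated siphon reads per cluster, summed over the 3 libraries, ran from 38 to 41735 with a median of 2194. The ratio ran from 4.01 to 600 with a median of 8.06, and 13 clusters reached 10. Together the clusters took up 0.606%, 0.789% and 0.587% of the summed FPKM of siphon 1, 2 and 3. They took 0.0352 to 0.0423% in the foot, 0.0261 to 0.0560% in the mantle, 0.0159 to 0.0315% in the gill, 0.00815 to 0.0147% in the labial palp and 0.00200 to 0.00438% in the intestine. All of these differences follow from the choice and are given as a description.

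**Figure D1:**
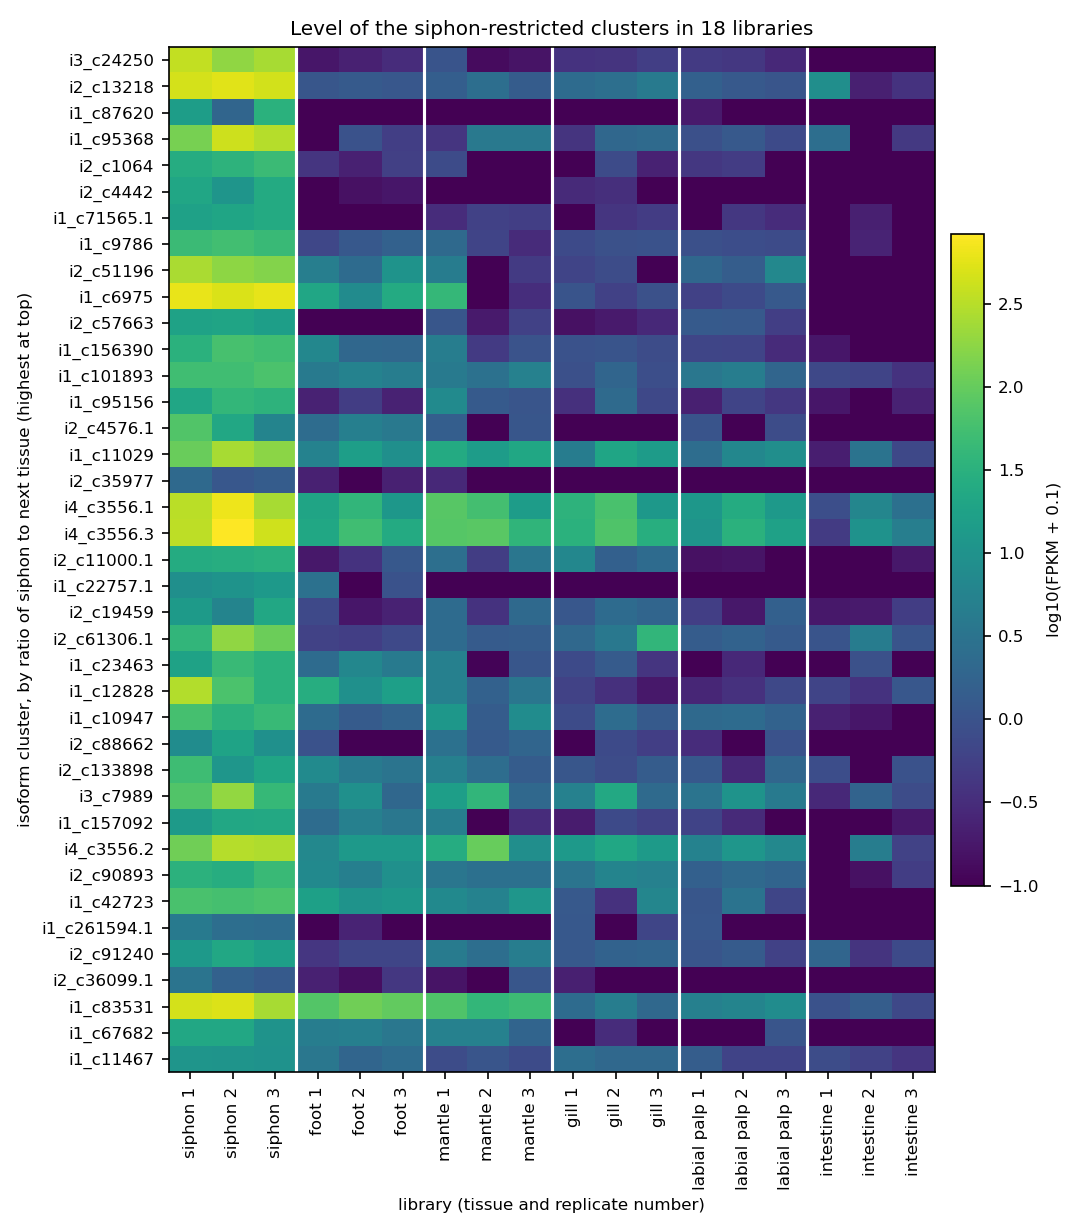
Level of the 39 clusters (rows, from the highest ratio at the top) in 18 libraries (columns, 3 per tissue), as log10(FPKM + 0.1). The 3 siphon columns are the brightest in each row, and the 3 intestine columns are at the floor in 15 rows.

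**Figure D2:**
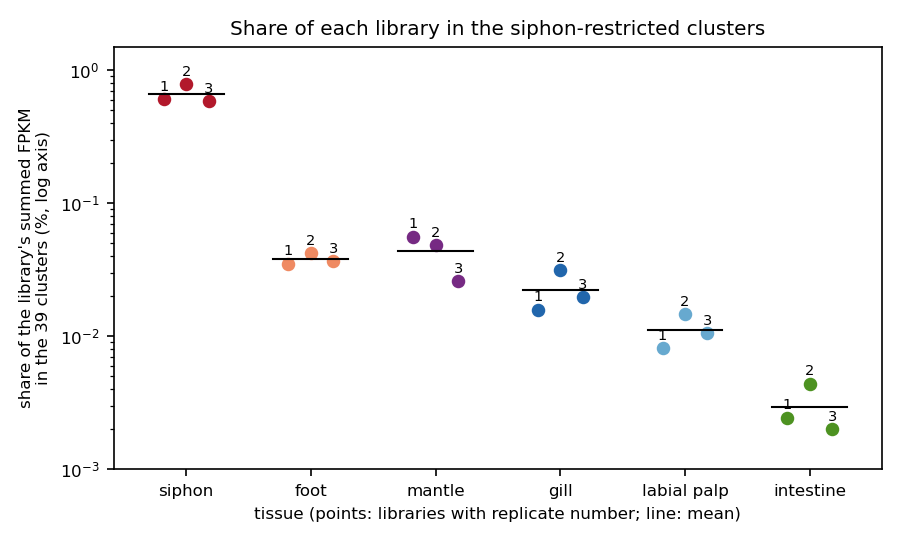
Share of each library's summed FPKM taken by the 39 clusters (vertical log axis, in percent), with a point per library marked by its replicate number and a line at the mean of each tissue. The siphon libraries lie between 0.587% and 0.789%, and the intestine libraries between 0.00200% and 0.00438%.

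Applied with each other tissue in its place, it left 42 clusters for the foot, 67 for the labial palp, 76 for the gill, 99 for the mantle and 271 for the intestine. These counts depend on the scaling. On FPKM rescaled by TMM they were 94 for the foot, 50 for the labial palp, 49 for the gill, 104 for the mantle and 242 for the intestine, with 48 for the siphon. When the foot libraries were left out, 497 clusters passed, of which 458 were not among the 39. In 324 of these 458 the foot mean was above the siphon mean. Their median level was 34.4 FPKM in the siphon and 38.0 FPKM in the foot, while the median of the 39 clusters was 35.7 FPKM in the siphon and 1.73 FPKM in the foot. Thus, of the clusters that passed against mantle, gill, labial palp and intestine, 39 of 497 also passed against the foot. Leaving out another single tissue let through 60 clusters without the mantle, 54 without the gill, 47 without the labial palp and 43 without the intestine.

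The highest ratio, 600, belonged to i3_c24250. Its levels were 363, 186 and 261 FPKM in siphon 1, 2 and 3, with a mean of 270 ± 89.0 (SD, n = 3). Outside the siphon it reached 0.96 FPKM in mantle 1 and no more than 0.44 FPKM in the other 14 libraries. All 3 intestine libraries were at 0. Thus, even the lowest siphon library was 194 times the highest library of another tissue. By siphon mean it ranked 360 of all 32250 clusters.

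i2_c13218 had a ratio of 162, with 471, 549 and 459 FPKM in siphon 1, 2 and 3 (493 ± 48.9, SD, n = 3). Its next tissue by mean was the intestine, and this rested on a single library, since intestine 1 held 8.46 FPKM and intestine 2 and 3 held 0.12 and 0.27 FPKM. The gill libraries held 2.29, 2.60 and 3.91 FPKM. Without intestine 1 the gill became the next tissue and the ratio was 163. The siphon libraries of this cluster lay close together, and all 15 other libraries were above 0.

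i1_c87620 came next with a ratio of 126, which is much less certain. Its siphon levels were 15.2, 1.79 and 31.8 FPKM, the widest spread of the 39 clusters, and the lowest of them rested on 11.7 estimated reads. Outside the siphon it was at 0 in 14 libraries, with 0.09 FPKM in labial palp 1. With so little signal outside the siphon the ratio depends on the added constant, being 406 with 0.01 and 16.7 with 1 in place of 0.1. The reads outside the siphon summed to 0.46, and the level differed widely between siphon pools.

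i1_c95368, with a ratio of 105, held 132, 425 and 304 FPKM in siphon 1, 2 and 3. It did not exceed 3.82 FPKM in another tissue, which was reached in mantle 3. i2_c1064 held 26.9, 34.8 and 46.8 FPKM in the siphon against at most 0.69 FPKM in mantle 1, giving a ratio of 92.1. In both clusters the siphon and the other libraries were far apart, although the siphon libraries of i1_c95368 themselves differed 3.23-fold.

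i2_c4442 held 20.7, 11.0 and 25.4 FPKM in siphon 1, 2 and 3 and was at 0 in all mantle, labial palp and intestine libraries, with at most 0.24 FPKM in gill 2. i1_c71565.1 held 17.3, 20.2 and 24.9 FPKM in the siphon, was at 0 in the 3 foot libraries, and reached 0.48 FPKM in mantle 2. Their ratios were 78.6 and 44.1. i1_c9786 had a ratio of 40.8, with 47.1, 53.4 and 44.9 FPKM in the siphon and 2.11 FPKM in mantle 1. All 3 were moderate in level, and none came near the siphon range in any other library.

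i2_c51196, with a ratio of 34.4, held 264, 180 and 158 FPKM in siphon 1, 2 and 3. The foot held 4.64, 2.24 and 10.4 FPKM, and the mantle 4.42, 0 and 0.37 FPKM. In the labial palp it was at 1.92, 1.33 and 6.72 FPKM, and the intestine was at 0. Signal outside the siphon was thus clearest in the foot, in 1 mantle library and in the labial palp.

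The most abundant of the 39 clusters was i1_c6975, with 617, 511 and 602 FPKM in siphon 1, 2 and 3 (576 ± 57.1, SD, n = 3). It ranked 162 of all clusters by siphon mean, and its ratio was 32.2. The foot held 20.8, 7.81 and 24.8 FPKM, while the mantle held 40.5, 0 and 0.23 FPKM. Gill and labial palp libraries lay between 0.47 and 1.15 FPKM, and the intestine was at 0. Mantle 1 was thus above every foot library, although the other mantle libraries held almost nothing.

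**Figure D3:**
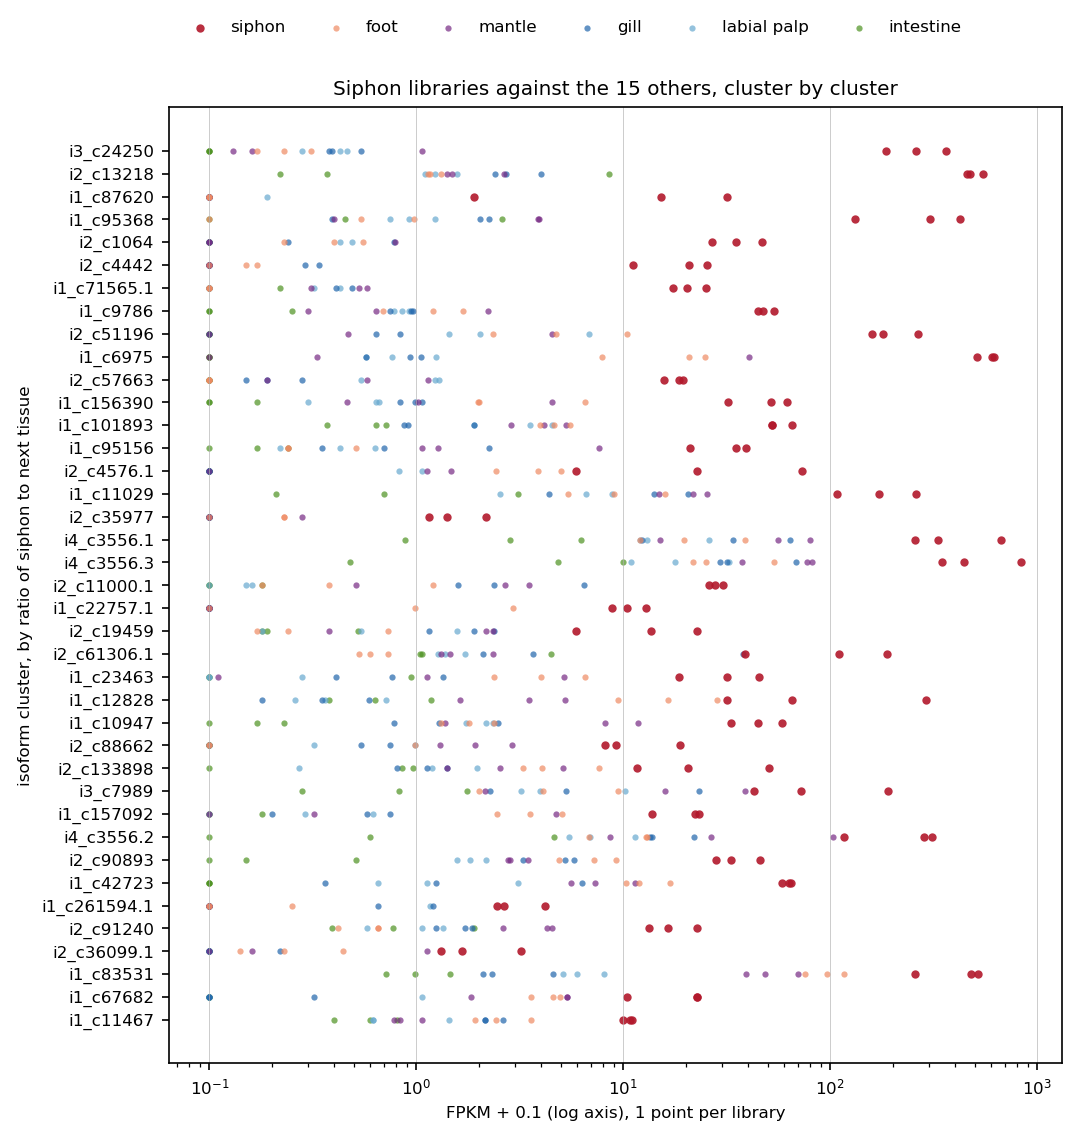
FPKM + 0.1 (horizontal log axis) of the 39 clusters (rows, by ratio), with a point per library coloured by tissue. The siphon points lie to the right of all others in every row as the rule requires, with the widest gap for i3_c24250 at the top and the narrowest for i2_c61306.1.

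The 3 segments of i4_c3556 were all among the 39 clusters. They share an ID stem and so may come from 1 transcript, and are not independent of each other. i4_c3556.3 held 345, 838 and 441 FPKM in siphon 1, 2 and 3, i4_c3556.1 held 330, 667 and 257 FPKM, and i4_c3556.2 held 117, 310 and 283 FPKM. The siphon 2 library was the highest in each. Outside the siphon they were found in all 5 other tissues. In the mantle i4_c3556.1 held 79.4, 56.0 and 14.9 FPKM and i4_c3556.3 held 76.9, 81.9 and 37.4 FPKM. For i4_c3556.2 the mantle libraries were at 26.5, 103 and 8.51 FPKM, so that mantle 2 was only just under the lowest siphon library. Their ratios were 8.33, 8.27 and 5.13 for i4_c3556.1, i4_c3556.3 and i4_c3556.2.

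Partner segments of other members were not among the 39. i1_c261594.1 held 4.09, 2.54 and 2.34 FPKM in the siphon, while i1_c261594.2 was at 0 in all 3 siphon libraries. The latter had only 10.3 estimated reads over all libraries, too few to show a different pattern. i2_c36099.1 held 3.12, 1.56 and 1.21 FPKM in the siphon. Its partner i2_c36099.2 was higher there, with 15.7, 17.2 and 15.8 FPKM, but had a mean of 28.4 FPKM in the intestine. Of the 39 clusters 10 were such segments, or 25.6%, against 33.8% of the clusters with at least 1 FPKM in all siphon libraries.

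Of the remaining abundant clusters, i1_c11029 held 108, 258 and 173 FPKM in siphon 1, 2 and 3. Its mantle libraries were at 25.2, 14.8 and 21.6 FPKM and its gill libraries at 4.29, 20.5 and 13.9 FPKM, for a ratio of 8.71. i1_c83531 held 476, 517 and 258 FPKM in the siphon, 75.1, 117 and 96.1 FPKM in the foot, and 69.9, 39.2 and 48.2 FPKM in the mantle. Both clusters were therefore found above 10 FPKM in every library of another tissue, the mantle. In i1_c83531 gill, labial palp and intestine stayed between 0.61 and 7.96 FPKM, which separates the foot and mantle from the other 3.

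At the edge of the rule, i1_c83531 (ratio 4.34), i1_c67682 (4.26) and i1_c11467 (4.01) were the last clusters kept, and in all of them the foot was the next tissue. i1_c67682 held 22.7, 22.6 and 10.3 FPKM in siphon 1, 2 and 3 and 4.46, 4.87 and 3.49 FPKM in the foot. i1_c11467 held 10.9, 10.7 and 9.92 FPKM in the siphon and 3.47, 1.83 and 2.33 FPKM in the foot. The first clusters left out were i1_c20715 (3.96), i1_c25031 (3.85) and i2_c84173 (3.79). i1_c20715 held 45.1, 28.9 and 36.7 FPKM in the siphon and 9.80, 7.26 and 10.7 FPKM in the labial palp. In the 3 clusters on each side of the limit every siphon library stood above every other library, so that they differ only in the ratio.

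The siphon libraries of a cluster differed from lowest to highest by 1.95-fold in the median, against 1.82-fold over the 16707 clusters with at least 1 FPKM in all 3. The spread ran from 1.1-fold in i1_c11467 to 17.7-fold in i1_c87620. The closest after i1_c11467 were i1_c42723, with 63.0, 58.6 and 64.7 FPKM in siphon 1, 2 and 3, and i2_c11000.1, with 25.7, 27.8 and 30.3 FPKM. The widest after i1_c87620 were i2_c4576.1, with 72.8, 22.6 and 5.82 FPKM, and i1_c12828, with 291, 65.5 and 31.6 FPKM. In the last cluster siphon 3 was scarcely above foot 1, which held 28.2 FPKM. No siphon library was highest throughout, as siphon 2 was the highest for 16 clusters, siphon 1 for 12 and siphon 3 for 11.

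The lowest siphon library stood 3.10 times above the highest other library in the median cluster. It stood less than 1.2 times above it in 6 clusters, the narrowest being i2_c61306.1. This cluster held 38.5, 188 and 110 FPKM in siphon 1, 2 and 3, and 37.8 FPKM in gill 3, while gill 1 and 2 were at 1.99 and 3.58 FPKM. Single libraries also set the edge elsewhere. Mantle 1 was the highest library outside the siphon for 11 clusters, more than any other library, and the highest mantle library for 23 of the 35 clusters seen in the mantle. In i1_c6975, i2_c51196 and i1_c157092 the level in mantle 1 was 40.5, 4.42 and 4.64 FPKM, while mantle 2 was at 0 in all 3. No share over all clusters is given beside these counts, so they are not shown to be particular to the 39. What set mantle 1 apart from the other mantle libraries was not tested. When it was left out, 38 of the 39 clusters still passed.

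**Figure D4:**
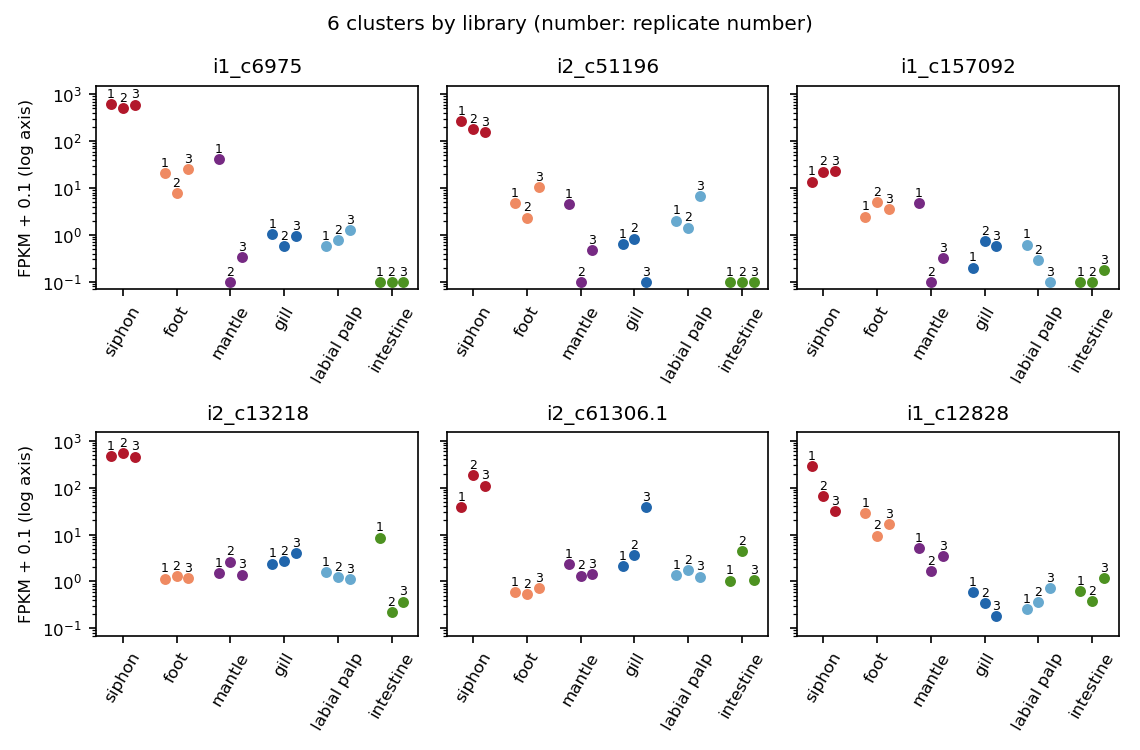
FPKM + 0.1 (vertical log axis) of 6 clusters by tissue, with a point per library marked by its replicate number. In the upper row mantle 1 stands above mantle 2 and 3, and in the lower row intestine 1 of i2_c13218 and gill 3 of i2_c61306.1 stand above their own tissue while i1_c12828 spreads widely in the siphon.

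The rule was also applied to 2 replicate numbers of each tissue, and the clusters so chosen were read in the libraries of the remaining number. The 39 clusters had been chosen on all 18 libraries, so the shares below describe the newly chosen lists and are not a check on the 39. With number 1 held out, 56 clusters were chosen, and the held-out siphon library was the highest of its 6 in 49 of them (87.5%, against 8.50% of all clusters). With number 2 held out it was the highest in 36 of 39 (92.3%, against 6.81%), and with number 3 in 48 of 61 (78.7%, against 6.79%). The shares of all clusters are over those above 0 in any held-out library. No siphon level or ratio was asked of them, so they are not a matched background. Among the clusters chosen, the held-out siphon level was at least 4 times the highest held-out other library in 26, 31 and 31, respectively. It was 0 in 4, 2 and 7 of them. Of the clusters chosen from the libraries of 2 numbers, 34, 33 and 37 were among the 39, in which every siphon library stood highest by the rule.

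The tissue next to the siphon was the foot for 18 clusters, the mantle for 13, the gill for 5, the labial palp for 2 and the intestine for 1. Among the 1247 clusters with the highest mean in the siphon and at least 1 FPKM in its 3 libraries, the next tissue was the foot in 49.6% and the mantle in 18.8%. The same figures were 46.2% and 33.3% for the 39 clusters. In the opposite direction, the siphon was the next tissue for 23 of the 42 foot-restricted clusters and for 22 of the 99 mantle-restricted ones. For 14 of the 39 clusters, leaving out the highest library of the next tissue gave another next tissue, so the order below the siphon is uncertain for these. Outside the siphon the median level of the 39 clusters was 1.94 FPKM in the mantle, 1.73 in the foot, 0.86 in the gill, 0.75 in the labial palp and 0.05 in the intestine. The intestine had the lowest mean in 24 clusters, and all 3 of its libraries were at 0 in 15. At the other end, 12 clusters were above 0 in all 15 other libraries, so restricted does not mean absent elsewhere.

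Because the choice compared the siphon with all other tissues, no siphon contrast was tested. The other 5 tissues were compared on the 15 libraries without siphon (edgeR quasi-likelihood test, Benjamini-Hochberg adjustment over all clusters tested). The fit held no term for the replicate number, and the counts with such a block are given in the last paragraph. The rule did not compare these tissues with each other, but it did use their values, since all 15 libraries had to lie below the siphon and the highest tissue mean was limited by the ratio. The clusters tested as a whole passed no such limit, so their shares are not a matched background, and the counts below are a description. i1_c87620 and i2_c35977 had under 10 reads in these libraries and were not tested. Of the other 37 clusters, 19 differed among the 5 tissues (51.4%), against 21.6% of the 29727 clusters tested. The count fell to 12 when foot 1, labial palp 1 or labial palp 3 was left out (33.3%, 32.4% and 32.4%, against 18.8%, 18.9% and 19.1%). By DESeq2 it was 27 (73%, against 34.9% of all clusters). By limma it was 21 on log2(FPKM + 0.1) (56.8%, against 36.3%) and 22 on log2(FPKM + 1) (59.5%, against 37.5%).

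In the foot, 15 of the 37 clusters were higher than in the mean of the remaining 4 tissues (40.5%, against 10.6% of all clusters tested). In the mantle 9 were higher (24.3%, against 4.74%), and 4 of these were also higher in the foot. The mantle count was 4 without mantle 1 (10.8%, against 3.05% of all clusters) and 18 by DESeq2 (48.6%, against 9.2%). In the gill 2 were higher (5.41%, against 3.25%). The count was 0 without gill 3 (against 1.57%) and 1 without gill 1 (2.78%, against 1.74%). Lower in the gill were 2 (5.41%, against 0.955%), with 1 without any 1 of the gill libraries (77 to 121 of all clusters tested). In the labial palp 1 was higher (against 2.96%), with 0 without labial palp 1 or labial palp 2 (against 1.89% and 1.9%). There 1 was lower (against 0.878%), with 5 by DESeq2 (13.5%, against 1230 of the 29727 clusters tested). The lower count was 0 without foot 1, foot 3, mantle 1, mantle 3, gill 1, gill 2, intestine 1 or any labial palp library. None of the 37 was higher in the intestine (edgeR, 0 at an adjusted p under 0.05 and 0 at an unadjusted p under 0.05, 0 by DESeq2 and by limma), against 6.55% of all clusters. In the intestine 13 were lower (35.1%, against 6.61%). The count was 7 without intestine 3 (18.9%, against 1387 of 29675 clusters) and 24 by DESeq2 (64.9%, against 3638 of 29727). For i2_c4442, i2_c57663, i2_c4576.1, i1_c22757.1, i1_c261594.1 and i2_c36099.1 all intestine libraries were at 0. Their standard errors there ran from 2849 to 5339 on the log2 scale, so the fit could not call them lower. No call in any of these contrasts was made for 12 of the 37. These include i2_c4442, i1_c22757.1, i1_c261594.1 and i2_c36099.1, so no call does not mean no difference.

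**Figure D5:**
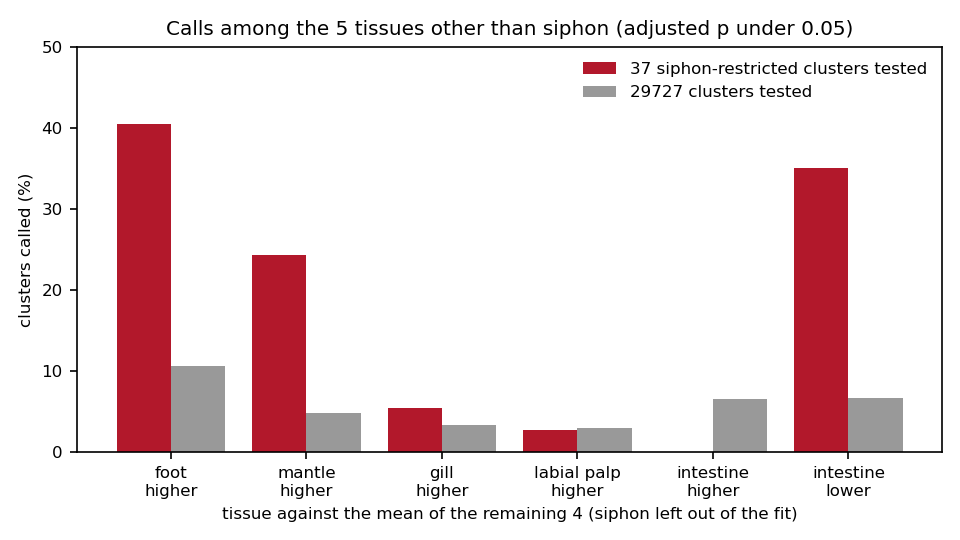
Percent of clusters called (vertical axis) in each tissue against the mean of the remaining 4, for the 37 siphon-restricted clusters tested (red) and all 29727 clusters tested (grey), by edgeR at an adjusted p under 0.05 without the siphon libraries. The red bars stand at 40.5% for higher in foot, 24.3% for higher in mantle and 35.1% for lower in intestine, against 10.6%, 4.74% and 6.61% in grey.

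The smallest p-values in the foot belonged to i1_c83531 and i1_c12828. i1_c83531 was higher in the foot by 5.13 ± 0.29 on the log2 scale (SE, adjusted p = 2.9e-07, edgeR), and also higher in the mantle by 3.09 ± 0.29 (adjusted p = 0.00014, edgeR). It was lower in the intestine by a log2 difference of -4.42 ± 0.45 (adjusted p = 7.6e-05, edgeR) and in the gill by -2.55 ± 0.40 (adjusted p = 0.0037, edgeR). All of these held under each alternative and without each library. Its level thus fell from siphon to foot, then mantle, with the other 3 tissues far below, and the foot and mantle libraries did not overlap.

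i1_c12828 was higher in the foot by 5.62 ± 0.47 on the log2 scale (SE, adjusted p = 5.9e-06, edgeR). The foot held 28.2, 9.34 and 16.4 FPKM, the mantle 5.10, 1.53 and 3.39 FPKM, and the 9 libraries of the other tissues lay between 0.08 and 1.08 FPKM. It was lower in the gill by a log2 difference of -3.13 ± 0.69 (SE, adjusted p = 0.025, edgeR) and in the labial palp by -2.78 ± 0.67 (adjusted p = 0.041, edgeR). The 3 foot libraries were above all mantle libraries, and the mantle libraries above the remaining 9.

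In the mantle the second smallest p belonged to i1_c10947, which held 11.7, 1.28 and 8.10 FPKM there (log2 difference 3.21 ± 0.53, SE, adjusted p = 0.0050, edgeR). Mantle 2 lay within the range of the foot libraries, at 2.27, 1.22 and 1.70 FPKM, so the groups overlapped. Mantle and siphon were both spread in this cluster, the siphon at 58.0, 33.2 and 44.6 FPKM.

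The clusters higher in the gill were i2_c11000.1 (adjusted p = 0.017, edgeR) and i2_c61306.1 (adjusted p = 0.018, edgeR), and those lower there were i1_c83531 and i1_c12828. i2_c11000.1 held 6.38, 1.49 and 2.26 FPKM in the gill and 2.59, 0.41 and 3.40 FPKM in the mantle, where it was also called higher (adjusted p = 0.023, edgeR), and these ranges overlap. The call of i2_c61306.1 rested on gill 3. In the labial palp i2_c57663 was higher (adjusted p = 0.013, edgeR), with 1.18, 1.13 and 0.44 FPKM against 1.04, 0.09 and 0.48 FPKM in the mantle and 0 in all foot and intestine libraries. It was 1 of the 3 clusters with all foot libraries at 0.

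In the intestine the smallest p after i1_c83531 belonged to i1_c101893, which held 0.61, 0.54 and 0.27 FPKM there. The foot held 3.86, 5.42 and 4.52 FPKM and the mantle 4.03, 2.78 and 5.16 FPKM (log2 difference of the intestine from the other 4 of -2.82 ± 0.48, SE, adjusted p = 0.0022, edgeR). Its siphon libraries were at 52.1, 52.3 and 65.0 FPKM. Every intestine library was below every library of the other tissues in this cluster.

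The clusters outside the naming rule are given here so that each of the 39 is accounted for. With the foot as next tissue, i1_c156390 held 31.9, 61.4 and 51.8 FPKM in siphon 1, 2 and 3, and 6.45, 1.91 and 1.88 FPKM in the foot. i1_c23463 held 18.4, 45.3 and 31.7 FPKM in the siphon, and 2.27, 6.41 and 3.88 FPKM in the foot. i2_c133898 held 50.5, 11.5 and 20.3 FPKM in the siphon, and 7.49, 3.93 and 3.18 FPKM in the foot. All 3 were among the clusters called higher in the foot above.

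i2_c90893 held 33.1, 28.1 and 45.8 FPKM in siphon 1, 2 and 3, and 7.15, 4.77 and 9.12 FPKM in the foot. i1_c157092 held 13.6, 22.2 and 23.2 FPKM in the siphon, and 2.34, 4.97 and 3.45 FPKM in the foot. i1_c22757.1 held 8.74, 10.3 and 12.7 FPKM in the siphon, 2.82, 0 and 0.88 FPKM in the foot, and 0 in the other 12 libraries. The last was thus found in siphon and foot only, with 25.3 estimated reads outside the siphon in all. i2_c35977 was the lowest cluster, with 2.08, 1.05 and 1.31 FPKM in the siphon on 38 reads, and at most 0.18 FPKM elsewhere.

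With the mantle as next tissue, i1_c95156 held 21.0, 39.1 and 34.8 FPKM in siphon 1, 2 and 3, and 7.50, 1.17 and 0.97 FPKM in the mantle. i2_c88662 held 8.02, 18.8 and 9.08 FPKM in the siphon, and 2.81, 1.2 and 1.81 FPKM in the mantle. i2_c91240 held 13.3, 22.5 and 16.3 FPKM in the siphon, and 4.18, 2.51 and 4.43 FPKM in the mantle. In all 3 clusters every mantle library stood above every foot library, and in i1_c95156 mantle 1 was far above mantle 2 and 3. With the gill as next tissue, i2_c19459 held 13.6, 5.79 and 22.6 FPKM in the siphon, and 1.05, 2.27 and 1.80 FPKM in the gill, a range shared with mantle 1 and 3 at 2.24 and 2.08 FPKM.

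Libraries are numbered 1 to 3 in each tissue, and the rule did not use the numbers. With tissue in the model, 3 of the 39 clusters differed by number (edgeR, 7.69%, against 17.7% of the 29930 clusters tested). The fit held the siphon libraries, whose values the rule had used, so the count is a description. Through the siphon alone i1_c87620 and i2_c35977 passed its read filter. Those that differed were i3_c7989 (adjusted p = 0.0099, edgeR), i4_c3556.3 (adjusted p = 0.036, edgeR) and i4_c3556.1 (adjusted p = 0.040, edgeR). The i4_c3556 segments share an ID stem. Without the mantle libraries 4 of the 39 differed by number (edgeR, 10.3%, against 33.2% of the 29702 clusters tested). Without the siphon libraries 0 of 37 passed (edgeR, against 4.87% of all clusters). At an unadjusted p under 0.05 there were 5 of the 37, against 7667 of the 29727 clusters tested (edgeR). i3_c7989 was highest in library 2 of all 6 tissues, with 71.9, 191 and 42.7 FPKM in siphon 1, 2 and 3, 15.8, 38.5 and 2.04 FPKM in the mantle, and 5.20, 23.2 and 2.18 FPKM in the gill. i4_c3556.3 and i4_c3556.2 were also highest in library 2 of all 6 tissues, and i4_c3556.1 in 5. What libraries of 1 number share was not tested.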

How the data were processed

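RNA-seq libraries of 6 tissues, 3 per tissue, were grouped and numbered by their labels. Files deposited by the authors hold, for 32250 isoform clusters per library, reads as an estimated count next to FPKM. The submitters' processing notes name RSEM, Bowtie2 and DESeq 1.10.1. RSEM divides reads between similar isoforms, so the levels of near-identical clusters are uncertain. The library kit in the labels is for Illumina, whereas the design text gives a Pacific Biosciences instrument.

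The clusters were chosen on the deposited FPKM (Python 3.11.15, pandas 2.3.3). Members and lists were chosen with earlier results of these data known. Counts were rounded, and clusters with at least 10 reads over the libraries of a fit were tested with edgeR 4.0.16 (R 4.3.3, TMM, quasi-likelihood, adjusted p under 0.05). A run on simulated counts drew each library independently and changed only well-covered clusters. It therefore cannot speak for linked libraries or low counts. Standard errors were the log2 difference over the square root of F. DESeq2 1.42.0, limma 3.58.1, RLE scaling, other filters, pseudocounts and rule limits, a replicate block and leaving out each library were alternatives. TMM raised the siphon relative to deposited FPKM by 0.37 to 0.82 on the log2 scale against mantle, gill, labial palp and intestine, while its difference from the foot dropped by 0.29.

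Clusters were named by rule: the 10 highest ratios and siphon means, 3 on each side of the limit, the 3 widest and 3 closest in the siphon, the 2 smallest p per contrast, segments sharing an ID stem, and the longest and shortest. The rule spoke of the cap of 150. As this was not reached, the ratio limit of 4 was used.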

Additional observations from a re-analysis of the deposited data

How the results depend on the processing

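Of the choices in the rule, a least ratio of 2 let through 101 clusters and a least ratio of 8 let through 21, in place of 39. Leaving out the mantle gave 60 and, as an alternative added after seeing the data, leaving out the foot gave 497. Over the 18 settings that left out a single library the count ran from 37 to 61, the highest without siphon 3, and between 32 and 39 of the 39 clusters were kept. On FPKM rescaled by TMM 48 clusters passed, 34 of the 39 among them. The ratio stayed at 4 or above for 27 clusters under all 7 settings of pseudocount, tissue median, TMM and siphon library, and its lowest value was 2.17. In the held-out libraries a siphon level of at least 4 times the highest other was found for 46.4%, 79.5% and 50.8% of the clusters chosen. Among the 5 other tissues, clusters higher in mantle numbered 18 by DESeq2 (48.6%, against 9.2% of all clusters). Those lower in intestine numbered 24 by DESeq2, which gave 6 of the 37 no adjusted p (64.9%, against 3638 of the 29727 tested). Higher in gill was 1 by limma on log2(FPKM + 0.1) (2.7%, against 6.44%). Clusters lower in labial palp numbered 5 by DESeq2 (13.5%, against 1230 of the 29727 tested) and 2 by limma on log2(FPKM + 1) (5.41%, against 423), in place of 1. Without each library in turn, the clusters that differed among the 5 tissues ran from 12 to 20, higher in foot from 13 to 16, higher in mantle from 4 to 10, higher in gill from 0 to 3, higher in labial palp from 0 to 1, higher in intestine from 0 to 0, lower in gill from 1 to 2, lower in labial palp from 0 to 1 and lower in intestine from 7 to 15. Of 43 calls in single contrasts, 20 held under all 21 alternatives and none changed direction. Clusters differing by number were 5 by DESeq2 (12.8%, against 29.7% of all clusters), 4 without mantle (10.3%, against 33.2%) and 0 without siphon (against 4.87%).

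Libraries of the same number correlated in their deviations from the tissue means in 30 of 30 pairs without mantle (0.245 to 0.810, median 0.688). In pairs with mantle 0 of 15 did so (-0.018 to 0.036, none above 0.1). The numbers thus linked every tissue but the mantle. The p-values and standard errors among the 5 tissues come from the fit without a block, which treats the linked libraries as independent. With the replicate block, 21 clusters differed among the 5 tissues (56.8%, against 26.6% of all clusters tested). In foot 17 were higher (45.9%, against 11.9%) and in mantle 15 (40.5%, against 7.63%). In gill 1 was higher (2.7%, against 4.22%), in labial palp 1 (2.7%, against 3.81%) and in intestine 0 (against 7.92%). In intestine 15 were lower (40.5%, against 2325 of the 29727 clusters tested), in gill 2 (5.41%, against 426) and in labial palp 1 (2.7%, against 440).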
